A study of Neurospora crassa with 12 samples.

Results

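Messenger RNA was compared between a *Neurospora crassa* strain in which *adat2* was silenced and the wild type (WT), in the 4 mRNA-seq libraries that were made beside ribosome profiling. These 4 samples, 2 of each strain, were chosen by their labels from the 12 of the series. WT is strain 87-3, which carries the band mutation *bd* and mating type a. Si*adat2* was made in host 301-6, which carries *bd*, mating type A and a *his-3* mutation, by integrating an inverted repeat of part of *adat2* under the promoter of *qa-2*, a gene induced by quinic acid (QA). Both strains were grown from conidia in Vogel's medium with 0.1% glucose and 0.01 M QA, so QA was present in WT too, for 3 days in plates and then 1 day with shaking at 200 rpm in constant light. Cycloheximide (CHX), which stops ribosomes on the mRNA, was given to all 4 cultures at 50 μg/ml for 10 min before harvest. Each of 2 experiments gave 1 WT and 1 Si*adat2* library, from the share of the culture that was not used for footprints. The strains thus differ in mating type and host as well as in the silencing construct, and the effect of the construct cannot be told apart from that of the host.

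ADAT2 is the catalytic subunit of the enzyme that turns adenosine into inosine at the wobble position of tRNA anticodons, and inosine lets a tRNA read several codons. *N. crassa* is a filamentous fungus that grows as mycelium and, when exposed to air and light or short of nutrients, forms orange asexual spores, the conidia. Its genes for spore coats, carotenoid pigments and QA use are well known from genetics, which makes the transcriptome of a culture readable as a developmental and metabolic state.

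The values are read counts over the coding part of each gene. The libraries held 961703 (WT) and 1547105 (Si*adat2*) reads in the first experiment and 2361460 and 2777576 in the second, with 7860 to 8882 genes that had at least 1 read. RPM below is the share of a gene in the reads of its library, times 1000000, and 3 reads correspond to 1.08 to 3.12 RPM. A gene was called when edgeR's quasi-likelihood test gave it an adjusted p below 0.05 (Benjamini-Hochberg, over all 7362 genes tested). Fold changes are log2 of Si*adat2* over WT after TMM scaling, which brought the median of all genes to 0.03. Scaled by library totals alone, the median was 0.32, a shift of 0.29, and every change below is relative to the TMM scale. Across genes, Pearson's r of log2(RPM + 1) was 0.96 between the 2 WT libraries, 0.98 between the 2 Si*adat2* libraries and 0.80 to 0.82 between strains.

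The targeted gene did not show lower reads. *adat2* (NCU01888) had 8 and 25 reads in the libraries labelled WT and 16 and 90 in those labelled Si*adat2*. As RPM, these were 8.32 and 10.6 against 10.3 and 32.4. The strains overlap, and the second Si*adat2* library stands above the other 3. The log2 fold change was 0.91 (standard error (SE) 0.46, adjusted p = 0.116). It was -0.16 without that library and 1.41, with an adjusted p of 0.00949, without the first Si*adat2* library. With the experiment as a block it was 0.96 (adjusted p = 0.0256). Reads of the induced inverted repeat and of the gene itself cannot be told apart in these counts, so they do not check the labels. Mating type could not check them either, because *matA-1* and *matA-2* together had 1 read in the WT libraries and 2 in the Si*adat2* libraries and *matA-3* had none. *his-3*, the integration site of the construct, had 890 and 1044 RPM in WT and 1090 and 1165 RPM in Si*adat2* (log2 fold change -0.07, SE 0.11, adjusted p = 0.625). Every direction below is therefore that of the libraries labelled Si*adat2*.

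The transcriptomes of the 2 strains differed widely. Of 7362 genes tested, 3669 (49.8%) were called, of which 1760 (23.9% of those tested) were higher and 1909 (25.9%) lower in Si*adat2*. Past 2-fold, 928 genes (12.6%) were higher and 1113 (15.1%) lower, and past 16-fold 61 and 27. The first principal component, which separates the strains, held 84.3% of the variance. With library totals alone 2685 genes were called higher and 1401 lower, so 65.7% of the calls were higher against 48.0% with TMM. In RPM 3804 genes (51.7%) lay above both WT libraries in both Si*adat2* libraries and 1922 (26.1%) lay below. A list of genes has to be read against these shares. The plot of strain means shows the conidiation markers far above the diagonal, and the genes of glycolysis and the citric acid cycle mostly below it.

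**Figure D1:**
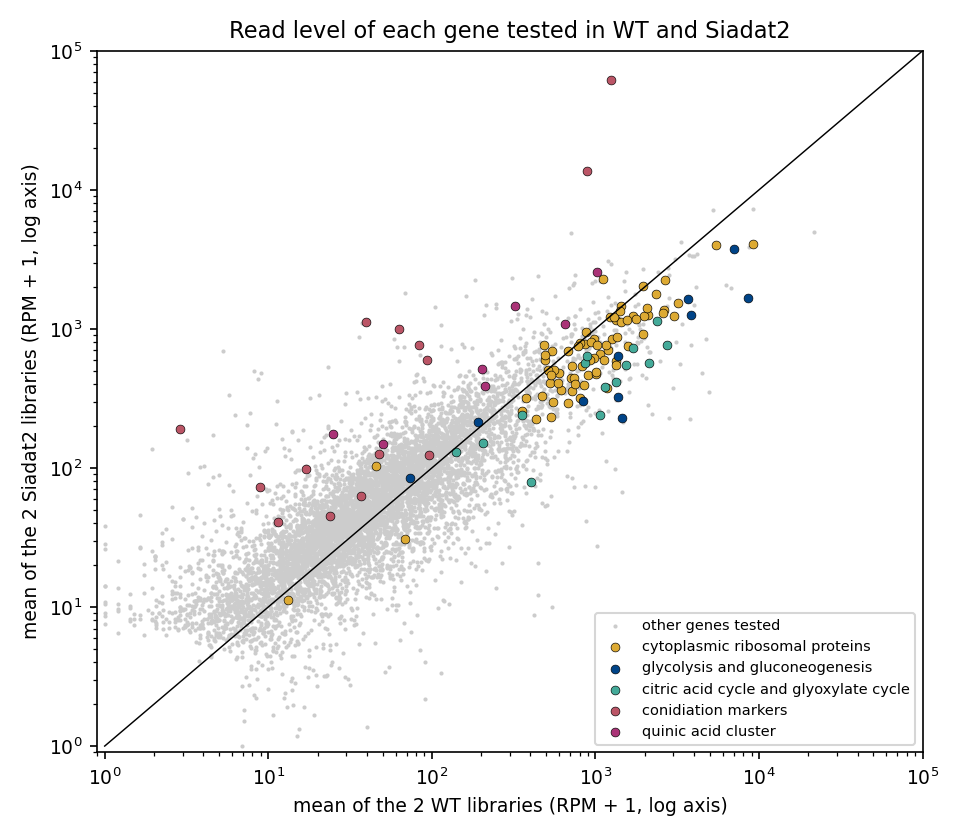
Mean RPM + 1 of each of the 7362 genes tested in the 2 WT libraries (x axis) and the 2 Siadat2 libraries (y axis), both on log axes, with 5 gene lists in colour and a line of equal levels. The 2 highest genes of Siadat2, eas and con-6, lie above the line, and most genes of glycolysis, of the citric acid cycle and of the cytoplasmic ribosome lie below it.

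Of the 5 most abundant transcripts of each strain, 3 were the same: *ccg-1* and the ribosomal protein genes NCU00315 and NCU00294. The leading ones differed. By the deposited FPKM, which accounts for length, the leading gene of WT was NCU06110 at 16748 ± 910 (SD, n = 2), followed by NCU00315 for ribosomal protein L29, *ccg-1*, NCU00294 for ribosomal protein L10a and *gpd-1*. In Si*adat2* NCU06110 had 3881 ± 233 FPKM, and its log2 fold change was -2.41 (SE 0.11, adjusted p = 1.02e-10). The leading gene of Si*adat2* was *eas*, the hydrophobin of the water-repellent rodlet layer on conidia, at 111739 ± 20767 FPKM against 2238 ± 77.9 in WT. *eas* took 6.95% and 5.29% of all reads in the Si*adat2* libraries, and NCU06110 took 2.28% and 2.08% in the WT libraries. The next was the conidiation gene *con-6* at 27221 ± 267 FPKM against 1742 ± 33.03. NCU00315 had 9706 ± 2209 FPKM and NCU00294 had 4631 ± 36.3 FPKM in Si*adat2*. *ccg-1*, a clock-controlled gene, was high in both strains, at 11946 ± 309 FPKM in WT and 16654 ± 291 in Si*adat2* (log2 fold change 0.17, SE 0.10, adjusted p = 0.147). With the experiment as a block *ccg-1* was called, with an adjusted p of 0.00446.

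Genes of conidiation were the group that rose most. Of 14 markers tested, 11 were called higher and none lower, beside 23.9% and 25.9% of all genes. All 11 were past 2-fold, beside 12.6% of all genes. The median log2 fold change was 2.59 against 0.03 for all genes. All 14 had higher RPM in both Si*adat2* libraries than in either WT library, beside 51.7% of all genes. *eas* had 1219 and 1265 RPM in WT and 69463 and 52906 in Si*adat2*, a 40.5-fold change (log2 5.34, SE 0.15, adjusted p = 1.33e-12). *con-6* had 878 and 891 RPM in WT and 13774 and 13477 in Si*adat2*. These groups do not overlap, and the gap between strains is many times the gap between replicates.

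Regulators of conidiation moved with the spore genes. *fl* (fluffy), the zinc-cluster transcription factor that directs the formation of conidia, had 65.5 and 58.4 RPM in WT and 986 and 1018 in Si*adat2* (log2 fold change 3.75, SE 0.13, adjusted p = 7.93e-12). *acon-3*, which is needed for conidiophores to form, had 36.4 and 40.7 RPM in WT and 1094 and 1155 in Si*adat2* (log2 fold change 4.55, SE 0.14). *csp-2*, which acts in the separation of conidia, rose by 2.96 (SE 0.13), and *csp-1*, a transcription factor with a role in the same step, by 1.05 (SE 0.20). Of the conidiation-specific genes, *con-13* went from 0 and 3.81 RPM to 205 and 172, *con-10* from 5.20 and 10.6 to 65.9 and 78.5, and *con-8* from 94.6 and 88.9 to 518 and 667. *acon-2* and *rca-1* were called higher at 2.44 (SE 0.24) and 1.63 (SE 0.29) on the log2 scale. *nrc-2*, a kinase gene whose loss leads to constitutive conidiation, was not called at 0.11 (SE 0.17, adjusted p = 0.598), nor were *mcb* and *fld*, at 0.44 and 0.52.

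**Figure D2:**
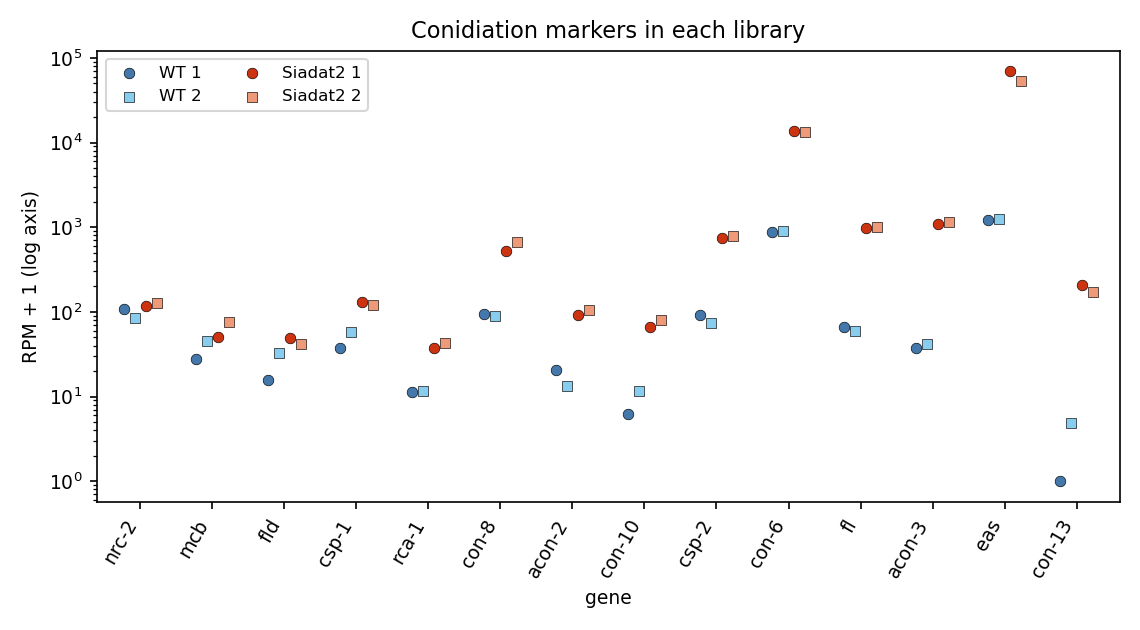
RPM + 1 (log axis) of the 14 conidiation markers in each of the 4 libraries, with genes ordered by log2 fold change and circles for the first and squares for the second experiment. The red points of Siadat2 lie above the blue points of WT for every marker, by little for nrc-2, mcb and fld. For eas they lie at 69463 and 52906 RPM against 1219 and 1265.

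The labels name the tissue as mycelia in both strains. The summed level of the conidiation markers was 2604 and 2671 RPM in WT and 87329 and 70760 RPM in Si*adat2*, with 13 of 14 markers at 1 read or more in the first WT library and all 14 in the others. In bulk RNA, more cells of a type and more of its RNA per cell cannot be told apart. These markers differ between the strains, as do many genes of the other lists, though not all. The part of these markers in those results was not tested. Of the 17 genes of sexual development and mating, 9 could be tested, and 1 was called in each direction, where leaving out a library gave up to 2 and the experiment as a block gave 2 in each. These counts stand beside 23.9% of all genes called higher and 25.9% called lower. *app*, for an abundant perithecial protein, rose from 57.2 and 58.9 RPM to 842 and 854 (log2 fold change 3.57, SE 0.13). The ascus development gene *asd-1* fell from 22.9 and 23.7 RPM to 0.646 and 5.04.

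Genes of light, pigment and clock were called in both directions. Of 26 tested, 9 were higher and 11 lower, beside 23.9% and 25.9% of all genes. The median log2 fold change of -0.16 becomes 0.13 with library totals. The 3 genes of carotenoid synthesis called higher were *al-1* for phytoene desaturase, *al-2* for phytoene synthase and *al-3* for geranylgeranyl diphosphate synthase. *al-3* had 95.7 and 110 RPM in WT and 1490 and 1379 in Si*adat2* (log2 fold change 3.49, SE 0.13, adjusted p = 1.43e-11), and *al-1* rose by 3.30 (SE 0.12) and *al-2* by 1.32 (SE 0.10). *nop-1*, the opsin gene, rose by 2.79 (SE 0.29). *ylo-1*, which acts at the end of the same pigment pathway, was called lower at -0.68. Among the genes of the core clock and the blue-light receptors, *frq* was called higher at 0.37 (SE 0.14), *vvd*, *wc-2* and *frh* were called lower at -0.46, -0.43 and -0.55, and *wc-1* was not called at -0.06 (adjusted p = 0.752).

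Several clock-controlled genes fell far. *ccg-14* had 454 and 386 RPM in WT and 7.11 and 8.28 in Si*adat2*, a 64.6-fold change (log2 -6.01, SE 0.19, adjusted p = 3.57e-12). *ccg-13* had 109 and 108 RPM in WT and 9.70 and 7.92 in Si*adat2* (log2 -3.94, SE 0.23). Of the 8 genes with a *ccg* symbol tested, 6 were called lower and none higher, beside 25.9% and 23.9% of all genes. *eas*, another clock-controlled gene, rose.

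The genes for QA use were all higher. The *qa* cluster is a run of 7 neighbouring genes, induced by QA through the activator gene *qa-1F* and held back by the repressor gene *qa-1S*. All 7 were called higher, beside 23.9% of all genes, and 5 of them past 2-fold, beside 12.6%. Their median log2 fold change was 1.06. In each, both Si*adat2* libraries had higher RPM than both WT libraries, beside 51.7% of all genes. *qa-1F* had 27.04 and 20.7 RPM in WT and 176 and 174 in Si*adat2* (log2 2.64, SE 0.19, adjusted p = 2.65e-08). *qa-1S* rose by 1.27 (SE 0.17) and *qa-Y*, the quinate permease gene, by 1.90 (SE 0.12). The enzymes rose less. *qa-3* for quinate dehydrogenase rose by 1.06 (SE 0.10), *qa-2* for catabolic dehydroquinase by 0.59 (SE 0.12) and *qa-4* for dehydroshikimate dehydratase by 0.43 (SE 0.12, adjusted p = 0.00691). *qa-X* rose by 1.06 (SE 0.12). The call of *qa-4* was lost without the second Si*adat2* library (0.29, adjusted p = 0.0749) and without the first WT library (0.34, adjusted p = 0.0639). The WT cultures held the same QA, so the values compare strains and not induction.

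Genes of central carbon metabolism fell together. All 14 genes on the list of the citric acid and glyoxylate cycles were called lower, 9 past 2-fold, with a median log2 fold change of -1.63. The list leaves out several genes with a *tca* symbol. Of 16 tested genes with that symbol, 15 were called lower and none higher. The exception, *tca-17*, was at 0.43. Of 10 genes of glycolysis and gluconeogenesis, 8 were called lower, all past 2-fold, and none higher, with a median of -1.61. These counts stand beside 25.9% of all genes called lower, and 15.1% called lower past 2-fold. Both medians stayed below -1.3 with library totals, at -1.34 and -1.32.

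Among the glycolytic genes the largest change was in *pgk* for phosphoglycerate kinase. It had 1445 and 1468 RPM in WT and 230 and 225 in Si*adat2*, 7.81-fold lower (log2 -2.97, SE 0.11, adjusted p = 1.5e-11). *gpd-1* for glyceraldehyde-3-phosphate dehydrogenase, the fifth most abundant transcript of WT by FPKM, had 8429 and 8736 RPM in WT and 1812 and 1543 in Si*adat2*. *emp-6* for phosphoglycerate mutase fell by 2.37 (SE 0.11). The genes for phosphoenolpyruvate carboxykinase (*acu-6*) and fructose-1,6-bisphosphatase (*fbp-1*), which work in gluconeogenesis, also fell, with log2 fold changes of -1.20 and -1.40. The exceptions were *ace-8* for pyruvate kinase at -0.13 (adjusted p = 0.457) and *ilv-5*, described as pyruvate decarboxylase, at -0.10. A gene outside the list, *cfp*, which encodes pyruvate decarboxylase in this fungus, was among the 10 genes that fell most, from 947 and 807 RPM to 49.8 and 31.3 (log2 -4.78, SE 0.18).

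In the citric acid cycle, NCU09810 for the alpha subunit of succinyl-CoA synthetase had 352 and 452 RPM in WT and 67.9 and 87.5 in Si*adat2* (log2 -2.65, SE 0.16, adjusted p = 2.31e-09). *tca-15* for malate dehydrogenase fell by 2.45 (SE 0.12) and *tca-14* for fumarate hydratase by 2.19 (SE 0.11). *cit-1* for citrate synthase had 1320 and 1345 RPM in WT and 415 and 416 in Si*adat2*. The enzymes particular to the glyoxylate cycle, malate synthase (*acu-9*) and isocitrate lyase (*acu-3*), both fell. *acu-9* had 2869 and 2594 RPM in WT and 768 in each Si*adat2* library, and *acu-3* had 1800 and 1596 against 776 and 687. The smallest change was in *tca-8*, at -0.41 (adjusted p = 0.0344), the gene of the 14 in which the RPM of the strains overlapped.

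**Figure D3:**
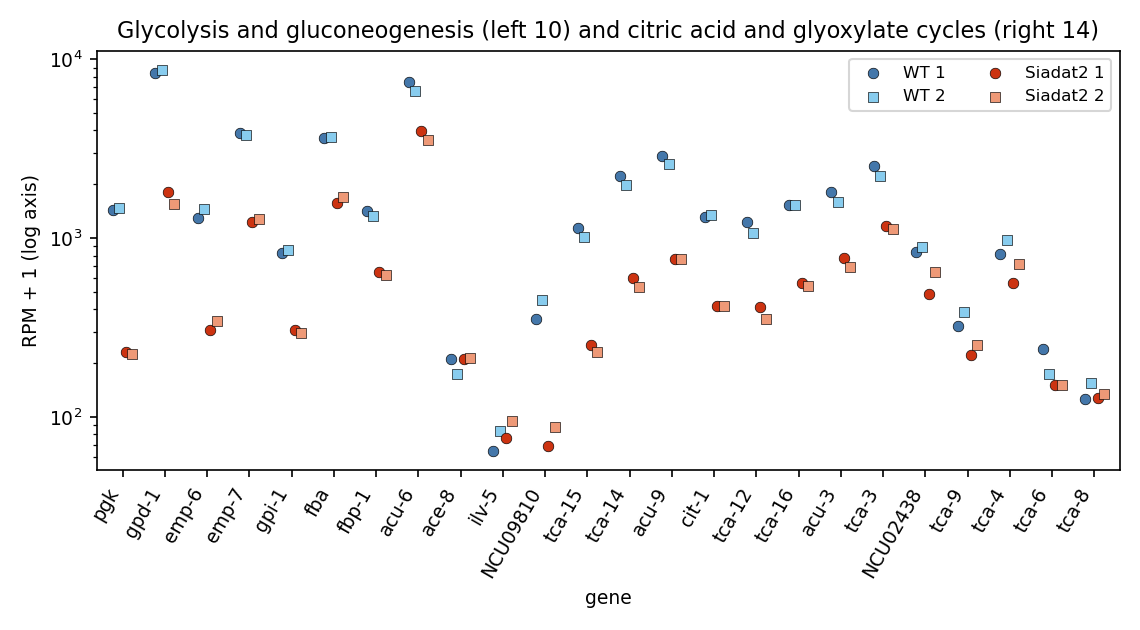
RPM + 1 (log axis) of the 10 genes of glycolysis and gluconeogenesis and the 14 of the citric acid and glyoxylate cycles in each library, with each group ordered by log2 fold change. Blue WT points lie above red Siadat2 points for most genes, from pgk and gpd-1 on the left to NCU09810 and tca-15, and the strains come together at ace-8, ilv-5 and tca-8.

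In the respiratory chain more genes were called lower than higher. Of 43 genes of the chain and ATP synthase, 23 (53.5%) were called lower and 9 (20.9%) higher, beside 25.9% and 23.9% of all genes. Their median was -0.38. With library totals 15 were called higher and the median was -0.09. NCU03559, a core subunit of the cytochrome bc1 complex, had 3191 and 3427 RPM in WT and 533 and 592 in Si*adat2* (log2 -2.84, SE 0.11, adjusted p = 1.89e-11). *tca-12* for the flavoprotein of succinate dehydrogenase fell by 1.87 and NCU09119 for ATP synthase subunit gamma went from 1876 and 2103 RPM to 735 and 977. Of the 29 genes with a *nuo* symbol, for subunits of complex I, 10 were called lower and 8 higher, beside 25.9% and 23.9% of all genes. *nuo9.8* was highest at 1.01 (SE 0.18) and *nuo9.5* lowest at -1.07.

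Most genes for cytoplasmic ribosomal proteins fell. Of 76 genes for cytoplasmic ribosomal proteins, 64 were called lower and 3 higher, beside 25.9% and 23.9% of all genes. Past 2-fold lower were 27 of the 76, beside 15.1% of all genes. With library totals 6 were called higher. The median of the 76 genes was -0.82, and -0.53 with library totals. Their summed level was 95389 and 96121 RPM in WT and 64506 and 66188 in Si*adat2*. *crp-15* had 1290 and 1065 RPM in WT and 405 and 348 in Si*adat2* (log2 -1.93, SE 0.13, adjusted p = 6.85e-09), *crp-10* fell by 1.63 and NCU03757 for ribosomal protein L4-A by 1.56. The 3 genes called higher were NCU06048 for ribosomal protein S30 (0.91), *ubi::crp-6*, a fusion with ubiquitin (0.73), and NCU08963 for L30 (0.39). NCU00294 for L10a and NCU00315 for L29, the ribosomal genes with the most reads per length, fell by 1.45 (SE 0.10) and 0.73 (SE 0.15). Of 7 genes for mitochondrial ribosomal proteins 3 were called, all lower (beside 25.9% of all genes), and 5 with the experiment as a block. The 3 were NCU06469 for L12 (-1.82), NCU08410 for L24 (-1.38) and NCU03926 for Rsm24 (-1.02).

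Translation factors and tRNA synthetases were called in both directions. The counts below stand beside 25.9% of all genes called lower and 23.9% called higher. Of 33 translation factors, 15 were called lower and 6 higher. With library totals 10 were called higher, and their median of -0.28 becomes 0.01. NCU01021, described as an eIF3 subunit, had 673 and 504 RPM in WT and 153 and 109 in Si*adat2* (log2 -2.46, SE 0.17). NCU04640 for the beta subunit of eIF2 fell by 1.67 and *un-10* for eIF3 by 1.27. The gene called highest was NCU00366 for eIF5 at 1.20 (SE 0.14). Of the 6 called higher, 3 were described as subunits of eIF2B, the exchange factor of eIF2: NCU01468 (0.92), NCU04344 (0.81) and NCU02414 (0.65). Of 28 aminoacyl-tRNA synthetases, 15 were called lower and 1 higher, with a median of -0.40, and that 1 was lost when any library was left out. With library totals 8 were called lower and 6 higher, with a median of -0.11. NCU00931 for a lysyl-tRNA synthetase was at -2.13 (SE 0.24), NCU00915 for the aspartyl enzyme at -1.65 and *trp-5* for the tryptophanyl enzyme at -1.42. Of 15 genes of ribosome biogenesis, 7 were called lower and 2 higher (0 higher without the second Si*adat2* library and 1 without the first or without the second WT library), led by NCU03396 for Nop58 at -1.75, NCU08595 at -1.28 and NCU01675 at -0.96.

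Amino acid synthesis did not rise as a group. Cross-pathway control raises many of its genes when amino acids are short, through CPC-1, the counterpart of yeast GCN4. *cpc-1* had 625 and 854 RPM in WT and 1728 and 2517 in Si*adat2* (log2 1.22, SE 0.16, adjusted p = 1.47e-05). *cpc-3*, the counterpart of the yeast kinase GCN2, was called higher at 0.39 (SE 0.13, adjusted p = 0.0241), a call that was lost when any 1 of the 4 libraries was left out, where the adjusted p was 0.0521 to 0.128. *cpc-2*, for a ribosome-bound protein of the RACK1 family, fell from 1146 and 997 RPM to 504 and 457 (log2 -1.44, SE 0.11). Of 76 genes of amino acid synthesis, 38 were called lower and 6 higher, beside 25.9% and 23.9% of all genes. The list holds *trp-5*, a tRNA synthetase gene that is 1 of the 38 and is also counted among the synthetases. The median of the list was -0.34, and -0.06 with library totals. The number called higher was 17 with library totals and 3 with DESeq2. *leu-2* had 719 and 651 RPM in WT and 154 and 150 in Si*adat2* (log2 -2.46, SE 0.12), and NCU08771 for acetolactate synthase (-1.93) and *lys-7* for homoisocitrate dehydrogenase (-1.58) fell too. The gene called highest was *arg-2*, for the small subunit of the arginine-specific carbamoyl phosphate synthetase, at 1.26 (SE 0.16).

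RNA interference genes are of interest because the strain makes dsRNA. In *N. crassa* dsRNA is cut by Dicer proteins and loaded on the Argonaute QDE-2, and dsRNA is known to raise transcripts of several of these genes. Of 10 genes listed, 7 could be tested. Of these 4 were called higher and 1 lower, beside 23.9% and 25.9% of all genes, with a median of 0.85. *qde-2* had 154 and 131 RPM in WT and 388 and 367 in Si*adat2* (log2 1.14, SE 0.13, adjusted p = 3.14e-06). *dcl-2*, the main Dicer gene, had 21.8 and 22.4 RPM in WT and 87.9 and 78.1 in Si*adat2* (log2 1.60, SE 0.21). *qip*, for an exonuclease that acts with QDE-2, rose by 1.08 (SE 0.19) and *rpa-3* by 0.85. *qde-1*, for an RNA-dependent RNA polymerase, was called lower at -0.71 (adjusted p = 0.0452), a call that was lost, leaving 0 lower in the list, without either Si*adat2* library or without the second WT library. The genes *dcl-1* and *qde-3* were not called, at -0.55 and -0.02. The part of the dsRNA in these values was not tested, and it cannot be told apart from that of the host.

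In protein quality control, most proteasome genes were not called. Of 26 proteasome genes, 9 were called higher and 1 lower, beside 23.9% and 25.9% of all genes, with a median of 0.18. With library totals 16 were called higher, and with the experiment as a block 3 were called lower. *rpt-4*, an ATPase of the regulatory particle, had 55.1 and 44.04 RPM in WT and 167 and 154 in Si*adat2* (log2 1.44, SE 0.18, adjusted p = 7.12e-06). *pca-4* of the core particle rose by 1.12 (SE 0.17) and *rpn-6* of the lid by 1.01 (SE 0.16). Of 30 chaperones, 13 were called lower, 3 higher and 14 neither way, beside 25.9% of all genes called lower and 23.9% higher. With library totals 6 were called higher. NCU07232, described as heat shock protein 30, had 110 and 96.6 RPM in WT and 10.3 and 18.7 in Si*adat2* (log2 -3.02, SE 0.23), and *hsp60* fell by 1.66 and *hsp80* by 1.35. The chaperone median of -0.32 is -0.02 with library totals.

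Genes of nitrogen, sulfur and peroxide metabolism gave a few large changes. The counts below stand beside 25.9% of all genes called lower and 23.9% called higher. Of 13 nitrogen and sulfur genes tested, 5 were called lower and 2 higher (4 without the first WT library, with library totals or with the experiment as a block). *gdh-1*, for the NAD-specific glutamate dehydrogenase, had 4412 and 5121 RPM in WT and 788 and 895 in Si*adat2*, 6.91-fold lower (log2 -2.79, SE 0.11, adjusted p = 5.06e-11). *am*, for the NADP-specific enzyme, was called higher at 0.57 (SE 0.13). The sulfate permease gene *cys-14* fell by 2.93 (SE 0.15) and the nitrite reductase gene *nit-6* by 1.82, while *nit-2*, the activator of nitrogen use genes, rose by 1.19 (SE 0.15). Of 6 catalases and superoxide dismutases, *cat-3* fell from 554 and 459 RPM to 112 and 115 (log2 -2.43, SE 0.13) and *sod-1* fell by 1.20. *cat-4*, *sod-2* and *cat-2* were called higher at 1.13, 0.63 and 0.47, and without the second library of either strain only 1 of them was. The call of *sod-2* was lost without the second library of either strain (adjusted p = 0.0964 without that of Si*adat2* and 0.0798 without that of WT).

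**Figure D4:**
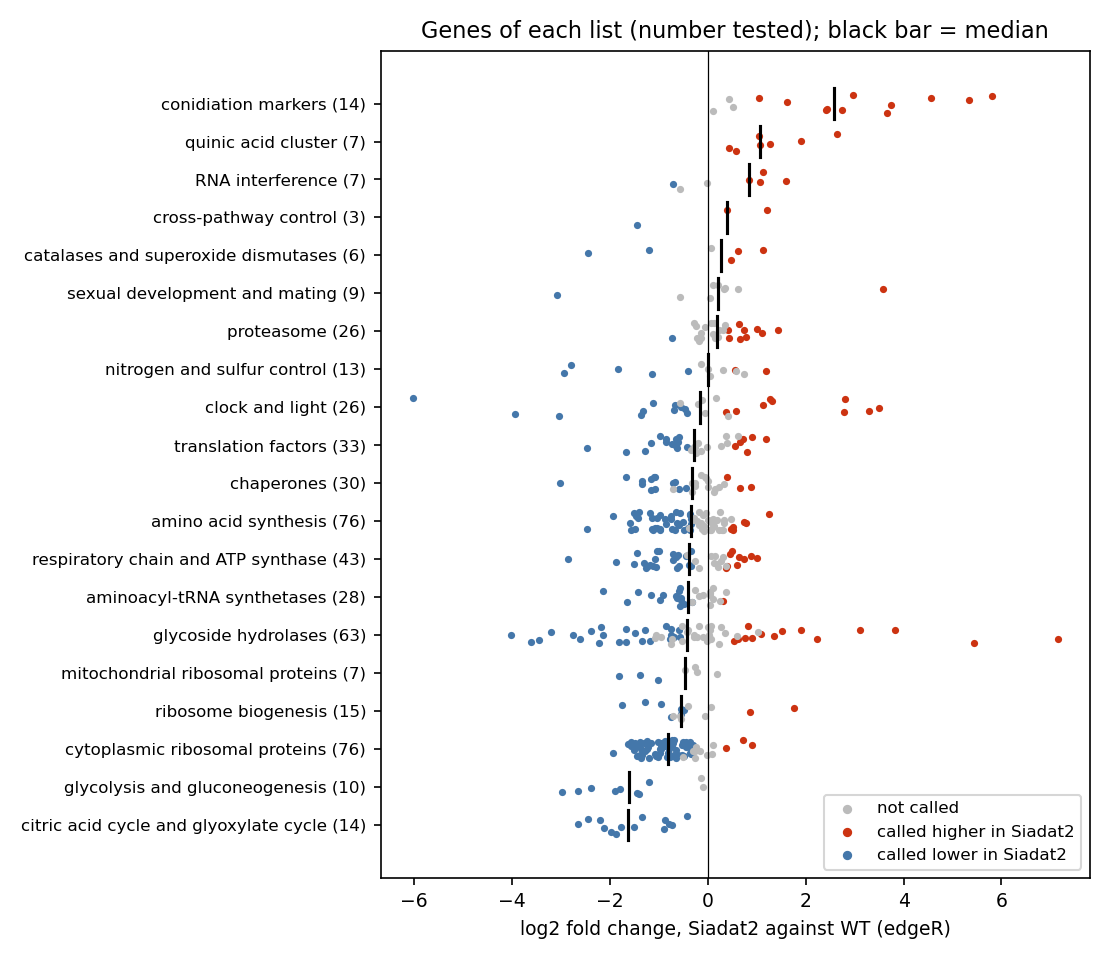
Log2 fold change, Siadat2 against WT, of each gene tested in 20 gene lists, coloured by call, with the number tested in brackets and a black bar at the median. Medians run from 2.59 for the conidiation markers to -1.63 for the citric acid and glyoxylate cycles, and glycoside hydrolases span the widest range, from -4.02 to 7.14.

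Glycoside hydrolases, which break down plant and fungal cell walls and storage sugars, held some of the largest changes in either direction. Of 82 listed, 63 could be tested, with a median of -0.42. Of these, 14 (22.2%) were called higher and 24 (38.1%) lower, beside 23.9% and 25.9% of all genes. Without the second Si*adat2* library 9 were called higher. *gh10-4*, of the family of xylanases, had 5.20 and 3.39 RPM in WT and 749 and 630 in Si*adat2*, 141-fold higher (log2 7.14, SE 0.23, adjusted p = 4.42e-12). Other members of family 10, *gh10-2*, *gh10-3* and *gh10-1*, were called lower at -3.43, -2.75 and -2.60. *gh18-4*, of the chitinase family, had 1.04 and 8.47 RPM in WT and 354 and 312 in Si*adat2* (log2 5.44, SE 0.29). *gh2-1* had 280 and 254 RPM in WT and 18.1 and 21.2 in Si*adat2* (log2 -4.02, SE 0.17).

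The 10 genes that rose most, among those with at least 50 reads in both Si*adat2* libraries, were *gh10-4*, *gh18-4*, *con-13*, *tnr-1* and 6 genes with no symbol. NCU09342 had no read in WT and 55 and 108 reads in Si*adat2*, which is at least 41.2-fold higher against a floor of 3 reads over the WT libraries. NCU04197 had 1 and 2 reads in WT and 136 RPM in each Si*adat2* library (log2 6.86, SE 0.34). NCU08351, *tnr-1*, NCU04431, NCU02969 and NCU07269 followed with log2 fold changes of 6.19, 6.11, 5.76, 5.38 and 5.37. In all of these the WT libraries had at most 24 reads.

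The 10 genes that fell most were *ccg-14*, *xr*, *cfp* and 7 genes with no symbol. NCU06912 had 91.5 and 88.9 RPM in WT and 1.29 and 1.08 in Si*adat2* (log2 -6.49, SE 0.34, adjusted p = 6.61e-10), and NCU06911, the identifier before it, fell by 4.74. NCU04697 had 539 and 542 RPM in WT and 8.40 and 9.72 in Si*adat2* (log2 -6.15, SE 0.17), and NCU08412 had 1025 and 1005 against 22.6 and 29.9. *xr*, the xylose reductase gene, fell by 5.16 (SE 0.29), and NCU09775, NCU00265 and NCU10687 were at -5.83, -5.58 and -4.77. In all 10 the strains did not overlap, as the choice of these genes required.

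The fold change followed the codon bias index (CBI), a deposited score that rises with the share of preferred codons. In 7 groups of 1051 or 1052 genes of rising CBI, the median log2 fold change fell at each step, from 0.28 to -0.42. The share of genes called lower rose from 15.1% to 51.1%, and the share called higher fell from 28.99% to 14.9%. Across the 7362 genes Pearson's r was -0.22 and Spearman's rho -0.22, and it was -0.21 and -0.21 without the cytoplasmic ribosomal protein genes. Genes with a high CBI were also more abundant, with a median of 14.3 FPKM in the lowest group and 109 in the highest. The median log2 fold change fell with level too, from 0.22 in the lowest of 5 groups to -0.31 in the highest. Within 3 groups of rising level, r was -0.15, -0.19 and -0.17. By coding length with 200 flanking bases, the medians of 5 groups of rising length were 0.07, -0.13, -0.03, 0.04 and 0.18, with no steady order. Genes share their libraries, so these are descriptions of 4 libraries and not tests.

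**Figure D5:**
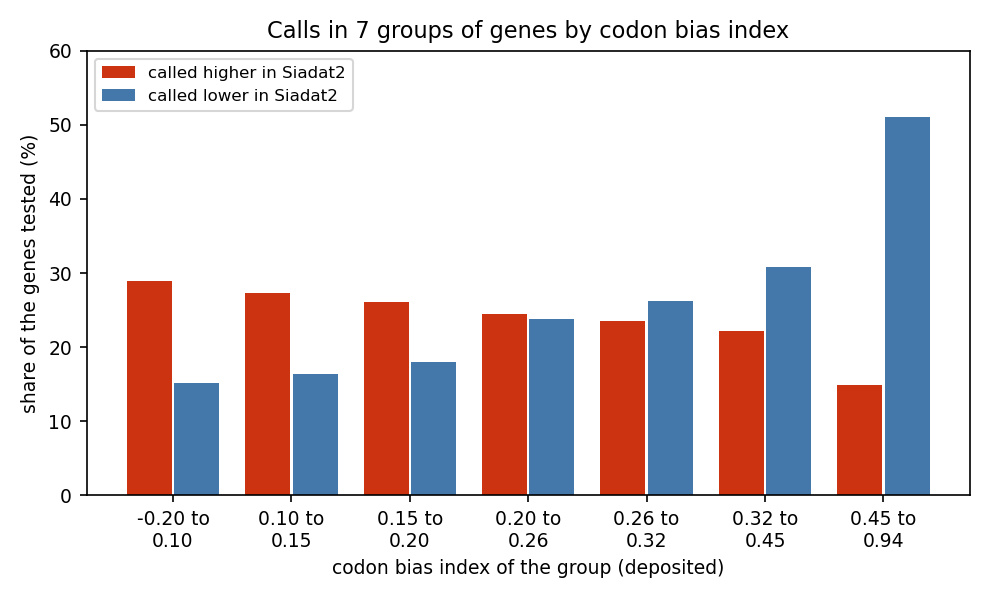
Share of genes called higher (red) and lower (blue) in Siadat2, in percent of the genes tested, in 7 groups of equal size by the deposited codon bias index. The share called lower rises from 15.1% in the lowest group to 51.1% in the highest, with the largest step between the last groups, and the share called higher falls from 28.99% to 14.9%.

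The same strains had also been sequenced without CHX, from separate cultures and with another kit (the independent mRNA-seq, 2 libraries of each strain). No library is shared. Of 1750 genes called higher here and listed there, 976 (55.8%) had a higher mean log2(FPKM + 0.1) in Si*adat2*, and of 1894 called lower 1181 (62.4%) had a lower one. Over all 7304 genes 53.4% had the same sign, and 41.0% were higher in the independent Si*adat2* libraries, so that a lower value was the more frequent one there whatever the call here. Past 2-fold the shares were 65.9% and 63.2%. CHX, kit, culture, read mapping and the measure used (read counts here, FPKM there) differ together between the 2 data sets and cannot be told apart.

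By gene group these counts varied. They stand beside all genes called here and above 0 in all 4 independent libraries. Of those, 57.7% of the genes called higher and 64.5% of the genes called lower had the same direction. Of the conidiation markers called here and above 0 in all 4 independent libraries, 9 of 10 had the same direction. So had 29 of 34 glycoside hydrolases, 7 of 8 genes of glycolysis and all 3 of cross-pathway control. Of these 3, *cpc-2* overlapped between the strains there, with 338 and 348 FPKM in WT and 356 and 269 in Si*adat2*. *con-13* had 1.82 and 1.30 FPKM in the independent WT libraries and 149.96 and 172 in those of Si*adat2*, and *cpc-1* had 528 and 537 against 2172 and 1820. *eas* is not listed there. *qa-1F* had 43.1 and 42.5 FPKM in the independent WT libraries and 14.02 and 11.4 in those of Si*adat2*, the reverse of its order with CHX. In all 0 of 7 genes of the *qa* cluster, 7 of 42 of amino acid synthesis, 3 of 16 tRNA synthetases and 1 of 9 proteasome genes had it. In the citric acid and glyoxylate cycles it was 7 of 13, and among cytoplasmic ribosomal protein genes 21 of 65. Among RNA interference genes it was 2 of 3, and the 7 tested had a median log2 difference of -0.42 in the independent mRNA-seq. These counts are descriptions, and the differences between the data sets were not tested.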

How the data were processed

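The 4 accompanying mRNA-seq libraries were made with the ARTseq kit from the cultures used for ribosome profiling. Per the study's methods, the authors discarded reads shorter than 25 nt, removed rRNA and tRNA reads, mapped the rest with Bowtie2 to coding sequences with 100 bp on each side, allowing 1 mismatch in the seed, and kept unique matches. For every gene the authors deposited a read count over its coding part, the FPKM, the length and a codon bias index, which is a score. The deposited FPKM uses the coding length plus 200 bp for 9011 of 9015 genes. Transcript FPKM values that the authors deposited for the independent libraries were summed per gene. It was used only for directions, with a pseudocount of 0.1. Sequence copies are counted only where reads are unique, and whether the counting used strand is not given in the sources used here, so reads of overlapping genes cannot be told apart.

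A gene absent from a table had 0 reads. Counts were tested with edgeR 4.0.16 in R 4.3.3 (TMM, filterByExpr with a minimum count of 10, glmQLFit, glmQLFTest), with the strain as the only term, since the study states no test for these libraries. SE is the size of the log2 fold change divided by the square root of F. All p-values were adjusted by the Benjamini-Hochberg method over the 7362 genes tested, and 1653 listed genes were not tested. Alternatives were DESeq2 1.42.0, RLE factors, library totals, other filters, limma-voom (limma 3.58.1), the experiment as a block and leaving out each library. Python 3.11.15 with pandas 2.3.3 was used for the rest. The test scripts were checked on simulated counts.

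The replicate number pairs the libraries because the study made a WT and a Si*adat2* library in each experiment, although the labels number only the second. The changes from the first to the second experiment correlated between strains across genes (r = 0.28, and 0.41 over 5211 genes with a mean of at least 50 reads). P-values rest on the spread between these 2 experiments only in part, because edgeR draws the variance of each gene toward that of other genes. The main model, with strain alone, does not use the pairing.

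The members of the 20 gene lists come from symbols of NCBI's NC12 gene table, which matched all 9015 genes by identifier and gave 1112 a symbol, and from protein descriptions supplied with the study. Members and lists were chosen with earlier results of these data known. Named genes are *adat2*, *his-3*, the mating type, cross-pathway and *qa* genes; the 10 higher and 10 lower with the largest fold change among called genes with at least 50 reads in each library of the higher strain and no overlap; the 3 largest called changes in each list with a mean of at least 50 reads; and the 5 most abundant genes of each strain by FPKM. Other members named were chosen after their values were seen. No interval is given for single values, and the floor of 3 reads covers counting error only.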

Additional observations from a re-analysis of the deposited data

Results flagged for a closer look

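Of the 88 named genes, 71 were above 0 in every independent library, and their direction was compared between the data sets with and without CHX. In 31 of these both Si*adat2* libraries lay on one side of both WT libraries here and on the other side in the independent mRNA-seq. The difference between the data sets was not tested.

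All 7 genes of the *qa* cluster were of this kind, higher here and lower without CHX, with log2 fold changes here of 2.64 (*qa-1F*), 1.90 (*qa-Y*), 1.27 (*qa-1S*), 1.06 (*qa-3*), 1.06 (*qa-X*), 0.59 (*qa-2*) and 0.43 (*qa-4*). *qa-1F* shows it clearly, with 27.04 and 20.7 RPM in WT and 176 and 174 in Si*adat2* here, against 43.1 and 42.5 FPKM and 14.02 and 11.4 FPKM without CHX. The other genes higher here and lower without CHX were *app* (3.57), the proteasome genes *rpt-4* (1.44), *pca-4* (1.12) and *rpn-6* (1.01), the Argonaute gene *qde-2* (1.14), *sod-2* (0.63) and *ccg-1* (0.17, not called here).

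Named genes were chosen in part list by list, and several lists are of protein synthesis, so the make-up of the next set partly reflects that choice. Among the named genes, those lower here and higher without CHX were mostly of protein synthesis. They include NCU01021 (-2.46), NCU04640 (-1.67) and *un-10* (-1.27) of the initiation factors, the tRNA synthetase genes NCU00931 (-2.13), NCU00915 (-1.65) and *trp-5* (-1.42), and the ribosome biogenesis genes NCU03396 (-1.75), NCU08595 (-1.28) and NCU01675 (-0.96). The ribosomal protein genes NCU06469 (-1.82), NCU00294 (-1.45) and NCU03926 (-1.02) did the same. *leu-2* (-2.46), *cat-3* (-2.43), *nit-6* (-1.82), *hsp60* (-1.66) and NCU10687 (-4.77) complete the set. The named genes do not stand for whole lists. In amino acid synthesis, 42 called genes were above 0 in every independent library. Of these, 35 had the opposite direction there and 7 the same. The 35 include the tRNA synthetase gene *trp-5*, which that list also holds.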

How the results depend on the processing

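The number of genes called higher, 1760, was 1041 with DESeq2 and 2685 with library totals alone, and the number past 2-fold higher, 928, was 1496 with library totals. RLE factors, the other filters and limma-voom kept the counts over all genes within 1.5 times. Counts in single lists moved further: with RLE factors 0 tRNA synthetases were called higher. With a mean of at least 50 reads, 9 glycoside hydrolases, 4 nitrogen and sulfur genes, 1 gene of ribosome biogenesis and 2 of sexual development were called higher, and 0 of RNA interference and 0 of sexual development lower. With no filter, 2 genes of sexual development were called in each direction. With library totals, 4 genes of ribosome biogenesis were called lower. With the experiment as a replicate block, 2027 genes were called higher and 2126 lower. The block changed the call of *adat2* (0.96, adjusted p = 0.0256) and *ccg-1*, and of no other named gene. The log2 fold change of *adat2* also passed the threshold with library totals (1.21, adjusted p = 0.0396) and with no filter (0.92, adjusted p = 0.0354). With a library left out, where the lone sample of a strain is assumed to vary like the others, it was -0.16 to 1.41, and *adat2* was called without the first Si*adat2* library and reversed without the second. With a mean of at least 50 reads *adat2* was not tested. *his-3* was 0.22 with library totals and 0.056 without the second WT library, with no call in any setting. Over the 4 left-out libraries, genes called higher ranged from 1294 to 1841 and lower from 1636 to 2002, past 2-fold from 804 to 1023 and from 1048 to 1207, list members called from 286 to 318 (334 with all libraries), *his-3* from -0.18 to 0.056 and r with the codon bias index from -0.24 to -0.17. The share with the same direction in the independent mRNA-seq was 64.5% for genes called lower when a mean FPKM of at least 1 was required. A listed 0 there can be a failed estimate, and without such genes, a setting chosen after seeing the data, the shares were 57.7% and 64.5%. Depth limits the low genes most: the first WT library has a median of 35 reads per listed gene.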

Other observations

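Genes that share a symbol stem, taken wherever 8 or more were tested, gave further groups, chosen after their values were seen. Of 20 *mus* genes, known for sensitivity to mutagens and mostly of DNA repair, 5 were called higher, about the 23.9% of all genes, and none lower (median log2 fold change 0.28), led by *mus-18*, for a UV endonuclease, which went from 18.7 and 15.2 RPM to 154 and 127 (log2 2.798, SE 0.22). Of 44 *stk* genes for serine-threonine kinases, 15 were called higher and 2 lower, beside 23.9% and 25.9% of all genes (median 0.33), with *stk-5* at 2.09 (SE 0.14). Of 11 *tim* genes for import into mitochondria, 5 were called lower and none higher, beside 25.9% and 23.9% of all genes (median -0.61). Among them *tim23* was at -1.59 (SE 0.23). The 11 *acw* genes for anchored cell wall proteins were all called, beside 49.8% of all genes, 6 higher and 5 lower. *acw-3* rose from 331 and 287 RPM to 2521 and 2152, while *acw-8* fell from 1405 and 1223 RPM to 103 and 90.01.

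The experiments differed for a few genes in both strains. In 14 genes with at least 50 reads in a library, log2(RPM + 1) changed by more than 2 between the experiments in both strains, and all 14 were higher in the second. The pheromone receptor gene *pre-1* had 6 and 234 reads in the 2 WT libraries and 15 and 234 in the 2 Si*adat2* libraries. NCU04214 had 0 and 152 reads in WT against 1 and 110 in Si*adat2*, and NCU04424 had 3 and 244 against 9 and 628. The cause was not tested.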
